A study of Mus musculus with 2 samples.

Results

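*Fras1*, *Frem1*, *Frem2* and *Grip1* encode the Fraser complex and the scaffold that carries it, and *Npnt* and *Itga8* encode nephronectin and the integrin subunit that binds it. These 6 genes, of 29924 gene names on the arrays, were followed in newborn mouse ureters cultured with the WNT secretion inhibitor IWP-2. They were picked by name, as genes of one basement membrane system, with their ratios in these same arrays already known, so their values are a description that no test supports. All 9 probes that carry these names were used.

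Ureters of wildtype NMRI mice were dissected at postnatal day (P) 0 and cultured on transwell membranes for 18 h. The medium held 5 µM IWP-2, a small molecule that blocks Porcupine, the enzyme that attaches the lipid WNT ligands need to leave the cell, or DMSO at 1:1000 as control. Each of the 2 two-colour arrays compared 1 pool of control ureters with 1 pool of treated ureters, and each pool held 5 to 6 ureters. The pools were female in replicate 1, with the treated sample in red, and male in replicate 2, with the treated sample in green, so that sex and dye orientation cannot be told apart. All 4 pools came from whole ureters of one outbred stock, with no mutant, second dose or second time. The arrays measure RNA of the whole tube, in which fewer cells of a type and less RNA per cell cannot be told apart.

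The Fraser complex lies at the outer face of basement membranes, below the densest layer, where it ties epithelia to the connective tissue beneath them. FRAS1 and FREM2 are large proteins made by epithelial cells, FREM1 is a related protein secreted mostly by mesenchymal cells, and the 3 depend on each other for a stable place in the matrix. GRIP1, a cytoplasmic scaffold with PDZ domains, brings FRAS1 and FREM2 to the basal cell surface. Nephronectin, a matrix protein of the same surface, is the ligand of the integrin made of ITGA8 and ITGB1, and loss of any of these genes can disturb the outgrowth of the ureteric bud and thereby the kidney.

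The spots of both arrays were of even quality. Of 157716 spots per array, 3.32% and 3.22% carried an outlier flag and none was saturated, and between 68.4% and 70.0% lay well above background in each channel. The ratios over all genes tested were wider on the female array (SD 0.22) than on the male array (SD 0.17). The number of arrays limits the precision of what follows. *Axin2*, a feedback gene of canonical WNT signaling, had signals of 181 and 154 in the control pools and of 42.2 and 46.7 in the treated pools, and fell with a mean log2 ratio of -1.91 (limma, adjusted p = 0.000824). *Porcn*, which encodes the inhibited enzyme, stayed between 1696 and 1920 in all 4 pools (mean log2 ratio -0.04, adjusted p = 0.958). The 14 urothelial and 7 smooth muscle marker genes looked at were all above the filter on dim genes, whereas of the kidney nephron markers *Podxl* and *Six2* were, and *Nphs1*, *Umod* and *Slc12a1* lay at the floor of 15 in every channel.

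The gene starts give the sequence context of a treatment that acts on WNT secretion. RefSeq (GRCm38.p6) lists 9 start sites for *Frem1*, *Frem2*, *Grip1*, *Npnt* and *Itga8*. The promoter set used held no entry for *Fras1*, so its promoter was not searched. The 250 bases before each were searched on both strands for the spelling CTTTGAA, for the same spelling with its last letters changed to AT or to TA, and for CTTTGTT, which TCF/LEF factors, the DNA-binding partners of β-catenin, can bind. The promoter of *Frem2*, the gene with the lowest ratio, is shown first, followed by the 3 in which a spelling was found, set in capitals. Each is written 5′ to 3′ on the strand of its gene. They are chr3:53657356-53657605 (minus strand) for *Frem2*, chr4:83021103-83021352 and chr4:83052167-83052416 (both minus strand) for *Frem1*, and chr10:119819139-119819388 (plus strand) for *Grip1*.
Frem2: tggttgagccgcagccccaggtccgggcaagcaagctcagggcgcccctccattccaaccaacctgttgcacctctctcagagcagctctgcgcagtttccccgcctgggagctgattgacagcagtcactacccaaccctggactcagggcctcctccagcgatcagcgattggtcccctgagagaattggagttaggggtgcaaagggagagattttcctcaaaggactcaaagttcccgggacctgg
Frem1, first start: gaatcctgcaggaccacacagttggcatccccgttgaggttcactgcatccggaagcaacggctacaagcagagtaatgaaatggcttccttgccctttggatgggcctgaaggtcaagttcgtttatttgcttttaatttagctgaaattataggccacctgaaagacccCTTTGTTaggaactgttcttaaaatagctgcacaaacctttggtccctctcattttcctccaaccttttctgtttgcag
Frem1, second start: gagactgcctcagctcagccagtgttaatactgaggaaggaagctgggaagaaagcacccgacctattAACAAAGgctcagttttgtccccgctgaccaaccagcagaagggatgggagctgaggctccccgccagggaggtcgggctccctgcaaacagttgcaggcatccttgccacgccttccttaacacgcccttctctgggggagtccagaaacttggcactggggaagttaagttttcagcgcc
Grip1: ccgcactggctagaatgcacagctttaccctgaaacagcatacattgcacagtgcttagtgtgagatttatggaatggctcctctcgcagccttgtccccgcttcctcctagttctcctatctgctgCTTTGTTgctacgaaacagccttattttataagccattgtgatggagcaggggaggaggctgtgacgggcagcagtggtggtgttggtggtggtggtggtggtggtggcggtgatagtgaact
The spelling found was CTTTGTT in all 3. It lay 79 and 182 bases before the *Frem1* starts, on the reverse strand in the second, and 123 bases before the *Grip1* start. None of the 4 spellings was found in the *Frem2* promoter, in either *Npnt* promoter, in the *Itga8* promoter or in the other 2 *Grip1* promoters. Of 32851 mouse promoters of this length, 14.8% hold at least 1 match, so a match is common and describes the letters alone.

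*Fras1* and *Frem2* encode the epithelial partners of the complex. *Frem2* had the lowest ratio of all 6 genes. Its probe (mm9 chr3:53318005-53318064) read 703 in the female control pool and 406 in the female treated pool, and 583 and 393 in the male pools, in arbitrary units of intensity. Both control signals lay well above both treated signals. Treated over control, the log2 ratio was -0.79 in the female and -0.57 in the male array (mean -0.68 ± 0.16, SD, n = 2 arrays), which leaves 62.4% of the control signal. Of 14336 genes bright enough to be tested, 54 (0.377%) had a lower mean ratio.

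*Fras1* was the member with the highest mean ratio. Its probe (mm9 chr5:97213218-97213277) read 288 in the female control pool and 286 in the treated one, and 391 and 346 in the male pools. The signals of control and treated pools overlapped, and the male pools were higher than the female pools in both conditions. The log2 ratio was -0.01 in replicate 1, where its 4 spots ran from -0.06 to 0.05, and -0.18 in replicate 2 (mean -0.09 ± 0.12, SD, n = 2 arrays). In replicate 1 its ratio turned to 0.02 with median centring and to 0.0011 with another background correction, and was 0 in the authors' table of the series. No direction can therefore be given for *Fras1* in the female pools. *Fras1* and *Frem2*, whose proteins act together, thus had ratios that differed in each array, by 0.78 and by 0.39 on the log2 scale.

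**Figure D1:**
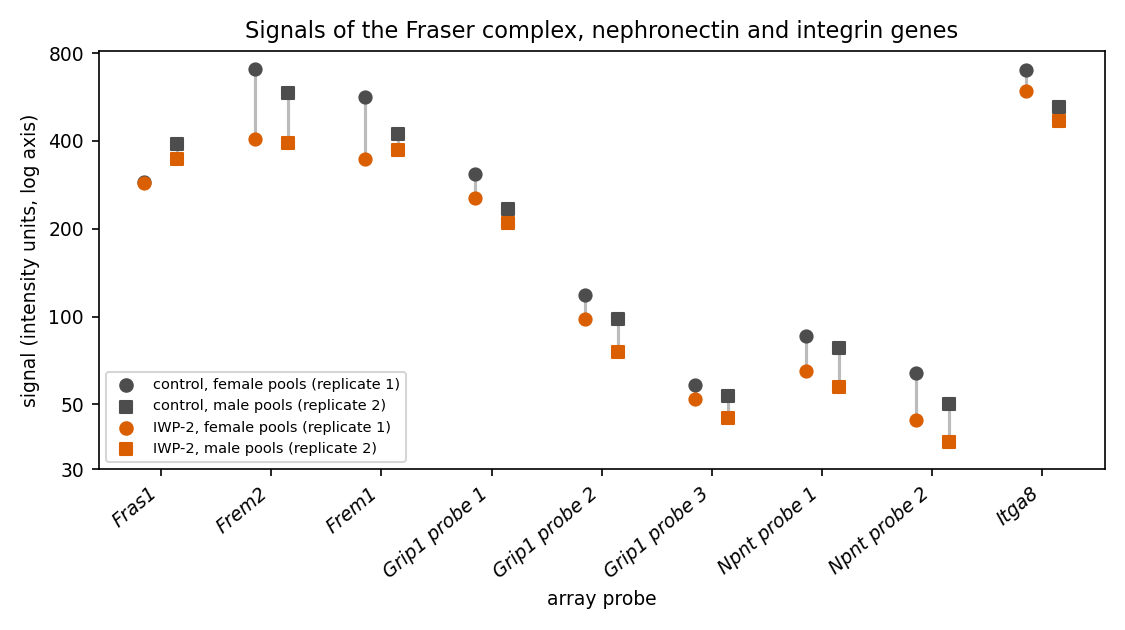
Signals of the 9 probes in the 4 pools, with intensity on a log axis, control in grey, IWP-2 in orange, circles for the female pools and squares for the male pools, and a line joining the pools of one array. Levels are not comparable between probes. The control points of *Frem2* (703 and 583) lie above its treated points (406 and 393), whereas those of *Fras1* overlap.

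*Frem1*, which encodes the secreted partner, differed most between the arrays. Its probe (mm9 chr4:82543865-82543924) read 565 in the female control pool and 346 in the treated one, but 424 and 372 in the male pools. Both control signals again lay above both treated signals, and the female control pool stood highest. The log2 ratios were -0.71 and -0.19 (mean -0.45 ± 0.37, SD, n = 2 arrays), so the treated pools kept 61.3% and 87.8% of the control signal. The 4 spots of each array ran from -0.77 to -0.66 in replicate 1 and from -0.21 to -0.15 in replicate 2, so that the spread between spots was far smaller than the gap between the arrays. A gap of 0.52 or more between arrays was found for 2.02% of the genes tested. The mean of *Frem1* rests in large part on the female array, and 150 genes (1.05%) had a lower mean ratio.

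*Grip1*, the scaffold gene, was read by 3 probes. The brightest (mm9 chr10:119512560-119512619) gave 308 and 255 in the female pools and 233 and 209 in the male pools, and 3 of its 4 spots were kept in replicate 1. Treated signals were below the control of the same array, but the female treated pool lay above the male control pool. The log2 ratios were -0.27 and -0.16 (mean -0.22 ± 0.077, SD, n = 2 arrays).

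The other probes of *Grip1* were dimmer. The one 707 bases further on read 118 and 98.2 in the female pools and 97.8 and 75.6 in the male pools, with log2 ratios of -0.27 and -0.37. The third, which starts another 10942 bases on, read 58.4 and 52.1, and 53.4 and 44.9, with ratios of -0.16 and -0.25. All 3 probes were therefore below 0 in both arrays, with means from -0.32 to -0.21, and they disagree on which array had the lower ratio.

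**Figure D2:**
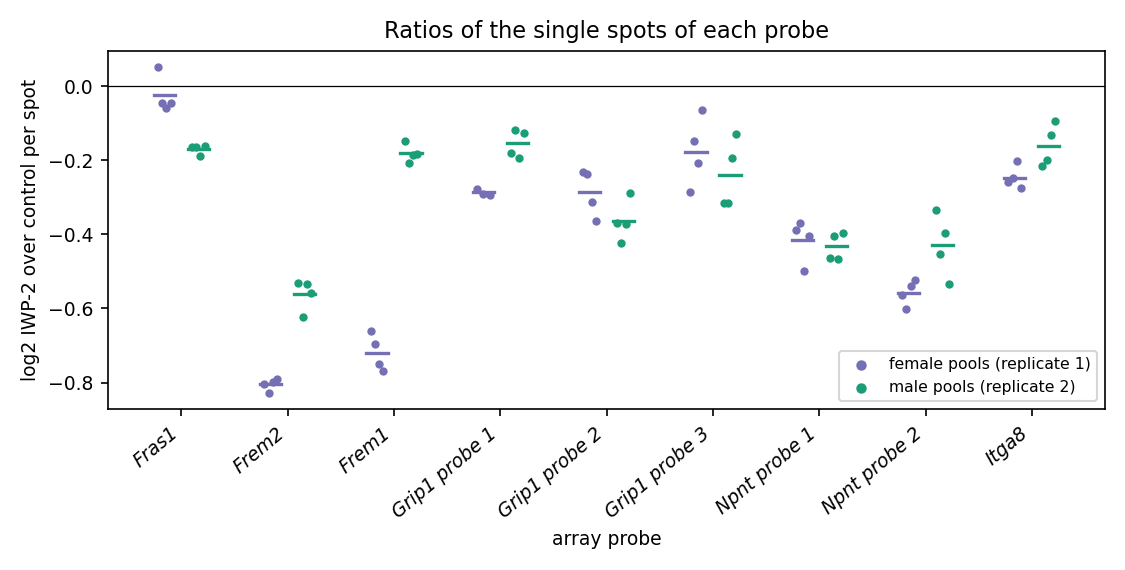
Log2 ratio of IWP-2 over control for every spot kept (71 of 72), from the signals as deposited, by probe, with female pools in purple, male pools in green and bars at the mean of the spots. *Frem1* shows 2 separate groups of spots, those of the first *Npnt* probe fall together in both arrays, and *Fras1* in the female pools has spots on both sides of 0.

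*Npnt*, the gene of the ligand nephronectin, was dim, with ratios that lay close together at the main setting. The brighter of its 2 probes (mm9 chr3:132547399-132547458) read 86.1 in the female control pool and 65.3 in the treated one, and 78.1 and 57.5 in the male pools. Both control signals lay above both treated signals, and all spots were well above background. The log2 ratios were -0.40 and -0.44 (mean -0.42 ± 0.029, SD, n = 2 arrays), and the treated pools kept 74.8% of the control signal. With another background correction they were -0.28 and -0.39, and in the authors' table of the series -0.49 and -0.38. The second probe, 1598 bases away, read 64.2 and 44.1 in the female pools and 50.2 and 37.2 in the male pools, and again the controls were above the treated pools. Its log2 ratios were -0.54 and -0.44. With signals under 100, *Npnt* did not enter the test over all genes at the main setting. With a filter at 50 all 6 genes entered it and 1 was called. There, 138 of 15620 genes were called lower and 60 higher. With no filter all 6 entered and 0 were called. Nothing is read from these counts, since the genes were picked with their ratios known.

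*Itga8* encodes the integrin subunit that receives nephronectin. Its probe (mm9 chr2:12028462-12028521) read 698 and 594 in the female pools and 524 and 467 in the male pools. The treated signal was below the control in each array, while the female treated pool lay above the male control pool. The log2 ratios were -0.23 and -0.17 (mean -0.20 ± 0.048, SD, n = 2 arrays), a smaller fall in each array than that of its ligand gene. Of the genes tested, 863 (6.02%) had a lower mean ratio.

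The 6 genes had a median log2 ratio of -0.32, against -0.006 over all genes tested, and a median of -0.34 in the female and -0.18 in the male array. All 6 were below 0 in both arrays at the main setting. *Fras1* turned above 0 in replicate 1 under the 2 settings given above, and was 0 there in the authors' table. Among all genes tested 29.1% were below 0 in both arrays. In 3 of the 6, *Frem1*, *Frem2* and *Npnt*, both control signals exceeded both treated signals, and among all genes tested 17% did. The limma fit over all genes (adjusted p under 0.05), which 5 of the 6 entered, counted 1 of these 5, *Frem2*, where it calls 1.25% of all genes (0.886% lower and 0.363% higher). These are 127 and 52 genes, or 108 and 85 with median centring and 160 and 107 with normexp background correction. Since the genes were picked with these ratios known, nothing is read from these counts. The control signals of these genes also differed between the arrays. On the log2 scale, male minus female, *Fras1* was at 0.44, and the others lay between -0.42 for *Itga8* and -0.14 for *Npnt*. The control was in green on the female and in red on the male array, and signals were not scaled between arrays. Pool, dye and array therefore cannot be told apart in these differences.

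**Figure D3:**
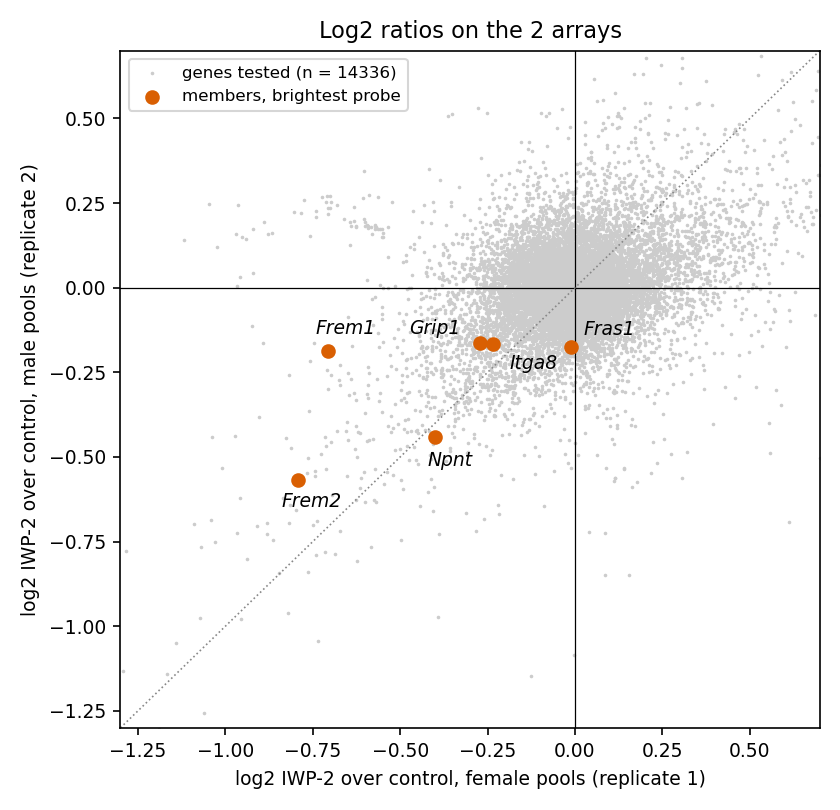
Log2 ratio of IWP-2 over control in the male pools against that in the female pools, with 14336 tested genes in grey and the brightest probe of each of the 6 genes in orange, the dotted line marking equal ratios. *Npnt* (-0.40 and -0.44) lies near this line, *Frem2* (-0.79 and -0.57) lies lowest, *Frem1* is low mainly in the female pools, and 122 genes fall outside the axes.

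The genes whose pair of ratios was nearest to that of *Frem2*, by distance over the 2 arrays, were 3830612M24 (-0.77 and -0.55), *Fam170b* (-0.74 and -0.56), *Asphd2* (-0.74 and -0.54), *Spon1* (-0.83 and -0.62) and *Aldh1a2* (-0.76 and -0.50). *Spon1* encodes a secreted matrix protein, with 1074 and 602 in the female pools and 814 and 529 in the male pools. *Aldh1a2* encodes a retinoic acid-synthesizing enzyme and is the lamina propria marker of the study.

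Among the partner genes of the complex and of nephronectin, none that could be tested was called. Of 6 partner genes, *Frem3*, *Grip2* and *Vwa2* lay at the floor of 15 in every channel, so no ratio was measured for these relatives of the complex. For *Vwa2* 15 of 16 spots were marked well above background, so its ratio is missing because of the floor. The other 3 were tested, none was called by limma, and 2 had an unadjusted p under 0.05 (1 lower, 1 higher), as 12.9% of all genes did. *Itgb1*, the β subunit that pairs with ITGA8, read 7785 and 8573 in the female pools and 6787 and 7738 in the male pools (mean log2 ratio 0.16, adjusted p = 0.375). The ratio of the α subunit gene *Itga8* was thus below 0 and that of its partner above 0 in both arrays. *Cspg4*, a proteoglycan with repeats like those of the FREM proteins, had a mean log2 ratio of -0.16 (adjusted p = 0.374). *Egfl6*, a relative of nephronectin that also binds this integrin, went 0.11 in the female and -0.24 in the male pools (adjusted p = 0.950).

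Other integrins that read the same RGD peptide motif as ITGA8, and their ligands, made up a list of 10 genes, of which 8 were tested. None was called, and 2 had an unadjusted p under 0.05 where 12.9% of all genes did, *Fn1* lower and *Itgb3* higher (mean 0.18, adjusted p = 0.333). Fibronectin, encoded by *Fn1*, read 14034 and 9966 in the female pools and 11969 and 10013 in the male pools (log2 ratios -0.49 and -0.26, adjusted p = 0.109). Both control signals were above both treated ones, as for *Npnt*, and the difference did not pass the test. *Spp1*, which encodes osteopontin, and *Itgb5* had mean log2 ratios of 0.08 and 0.04 (adjusted p = 0.876 and 0.971). The median of the tested genes was -0.05.

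No tested gene of the basement membrane itself was called at the main setting. Of 27 genes for laminins, type IV collagens, nidogens, perlecan, agrin and related proteins, 26 were on the arrays under these names and 22 were tested. None was called by limma, and 8 had an unadjusted p under 0.05 (7 lower, 1 higher), where 12.9% of all genes tested had one. Their median log2 ratio was -0.08 and their means ran from -0.24 for *Nid2* (nidogen 2) to 0.40 for *Lamc3* (laminin γ3). Of the 22, 12 were below 0 in both arrays and 3 above, against 29.1% and 25.7% of all genes tested. *Lamc1*, the common laminin γ chain, read 10316 and 8192 in the female pools and 8878 and 8040 in the male pools (mean -0.24, adjusted p = 0.233). *Col4a1* and *Lamb1*, also abundant, had means of -0.05 and -0.01.

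*Hmcn1*, which encodes the large matrix protein hemicentin 1, was the exception among the dim genes of that list. It read 77.5 and 44.1 in the female pools and 60.8 and 37.7 in the male pools, and both controls were above both treated pools. The log2 ratios were -0.81 and -0.69, lower in each array than those of *Frem2*, and a second, dimmer probe gave -0.64 and -0.48. Like *Npnt* it fell below the filter on signal at the main setting. *Hmcn1* was called by limma when the filter was set at 50 (adjusted p = 0.0138, range over the settings that tested it 0.0138 to 0.589).

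Of 12 receptors and anchors that hold epithelial cells to the basement membrane, 11 were tested and 1 was called lower, where 0.886% of all genes were. This was *Col17a1*, which encodes the transmembrane collagen of hemidesmosomes. It read 1083 and 689 in the female pools and 1156 and 786 in the male pools, with no overlap between conditions. The mean log2 ratio was -0.61 ± 0.069 (SE moderated by limma over all genes, n = 2 arrays, limma adjusted p = 0.0168). The call was lost only with no filter on dim genes. The list median was -0.005. *Itgb4*, the integrin subunit of the same junction, had a mean of 0.11 (adjusted p = 0.686), and *Cd151*, *Dag1* and *Plec* had means of -0.03, 0.04 and -0.09. No other gene of the list was called.

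The GDNF axis, through which nephronectin and ITGA8 act in the embryonic kidney, had 7 genes, of which 5 were tested and 1 was called lower, where 0.886% of all genes were. *Wnt11*, a WNT ligand gene of ureteric bud tips, read 126 and 93 in the female pools and 166 and 106 in the male pools. The mean log2 ratio was -0.54 ± 0.077 (SE moderated by limma over all genes, n = 2 arrays, limma adjusted p = 0.0344). The call was lost with the mean of probes, with no filter, and with a filter at 200, which *Wnt11* did not pass. *Wnt11* has 1 probe, so its own ratio was unchanged with the mean of probes. *Gdnf* and *Ret*, the ligand and its receptor, were below the filter, with signals between 53.8 and 73.3 in all pools. *Spry1*, *Etv5* and *Etv4*, which respond to this receptor elsewhere, had means of 0.18, -0.12 and -0.15 (adjusted p = 0.505, 0.703 and 0.452).

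**Figure D4:**
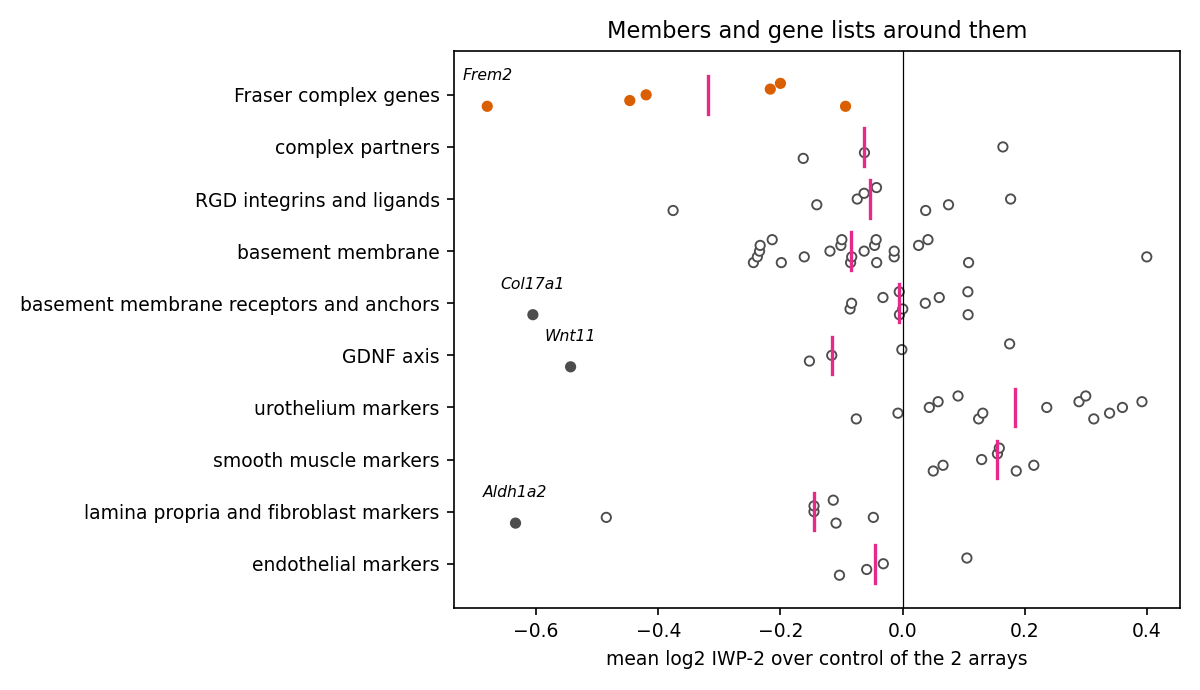
Mean log2 ratio of IWP-2 over control of the 2 arrays for the 6 genes (orange, brightest probe, *Npnt* included) and for the tested genes of each list, with filled grey points for genes called by limma (adjusted p under 0.05), open points for those not called and pink bars at the median of each row. *Col17a1*, *Wnt11* and *Aldh1a2* are the filled points, the basement membrane genes centre on -0.08, and the urothelium markers on 0.18.

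Markers of the cell layers were read beside these ratios. Of 14 urothelium markers, 10 were above 0 in both arrays and none below, against 25.7% of all genes tested above 0 in both. None was called, except *Grhl3* with normexp background correction (adjusted p = 0.04997), and 7 had an unadjusted p under 0.05, all higher, against 12.9% of all genes. They had a median log2 ratio of 0.30 in the female and 0.07 in the male array. Their summed signal went from 162954 to 202355 in the female and from 196441 to 202251 in the male pools, with *Upk3a*, *Krt8* and *Krt18* the brightest (means 0.12, -0.01 and 0.13). Other genes known from epithelia went both ways. *Frem2* and *Col17a1* were below 0 in both arrays, *Itgb4* (0.08 and 0.14) was above 0 in both, and *Fras1* had no clear direction in the female pools. Of the 11 tested receptors and anchors of epithelial cells, 3 were below 0 in both arrays and 3 above. The 7 lamina propria and fibroblast markers had a median of -0.25 in the female and -0.04 in the male array, and a summed signal of 121480 and 102005, and of 107343 and 105054.

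Among the lamina propria markers *Aldh1a2* was called lower (mean -0.63, limma adjusted p = 0.0280). This call was lost with no filter and with the mean of probes, though *Aldh1a2* has a single probe and its ratio was unchanged there. *Thy1* had a mean of -0.48 (adjusted p = 0.0547, called with a filter at 200 and with normexp). *Dcn*, *Col3a1* and *Col1a1*, the brightest, had means of -0.11, -0.15 and -0.15. The 7 smooth muscle markers had a median of 0.06 and 0.23, with none called and 2 at an unadjusted p under 0.05, and with *Acta2*, *Tagln* and *Cnn1* at means of 0.05, 0.16 and 0.07. Of 4 endothelial markers none was called and none had an unadjusted p under 0.05, with *Cdh5*, *Kdr* and *Pecam1* at means of -0.10, -0.03 and 0.11. *Six2*, a nephron progenitor marker, read 211 and 172 in the female and 157 and 140 in the male pools (mean -0.23, adjusted p = 0.212), and *Podxl* had a mean of -0.06 (adjusted p = 0.936). The part of these markers in the ratios of the 6 genes was not tested.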

How the data were processed

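RNA of the 4 ureter pools was amplified, labelled with AlexaFluor555 or AlexaFluor647 and hybridised to 2 Agilent arrays. The authors deposited scanner output with red and green intensity per spot, corrected for background and dye by Feature Extraction (version 12.2.0.7 per the file headers, 10.7.3.1 per the labels). The deposited log10 ratio column served to check the dye direction. It equalled the log10 of red over green within 0.001 for 82.8% and 83.1% of spots and was 0 for the rest. The authors' table of the series holds a signed score per probe, read as fold change (Pearson r across 39429 probes of 0.939 and 0.917 with the ratios used here, a description), whose exact scaling is not stated. No per-sample column was left unassigned. Probe coordinates are those of the files (mm9), and promoters are from RefSeq (GRCm38.p6).

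From the processed intensities, control spots and flagged outliers were dropped, each array was loess-normalised (limma 3.58.1, R 4.3.3), spots of a probe were averaged, values under 15 were set to 15, and log2 ratios were turned to treated over control. The brightest probe stood for each gene name, 7395 of which have several. Genes whose mean signal exceeded 100 in either condition (14336) were tested against 0 with lmFit and eBayes, with Benjamini-Hochberg adjustment at 0.05 and 1 residual degree of freedom. The pools were independent per the study's methods. Scripts were tested on simulated data. The members and lists were chosen with earlier results of these data known. Named were all members, list genes called by limma (at most 10 per list), the 3 brightest tested genes of each list, *Axin2*, *Porcn*, and the 5 genes nearest to *Frem2*. *Hmcn1*, *Nid2*, *Lamc3*, *Itgb3*, *Itgb4*, *Grhl3*, *Thy1*, *Gdnf*, *Ret* and the genes at the floor were named after their values were seen. A kidney marker of the lists is not reported here. Alternatives covered normalisation, background, outlier spots, floor, probes per gene, filter, the authors' table and each array alone.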

Additional observations from a re-analysis of the deposited data

Results flagged for a closer look

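None of the 6 genes changed sign between the arrays at the main setting. Among the other genes named, 12 had ratios of opposite sign in the female and the male array, with 1 array of each, so that the difference was not tested and sex and dye orientation cannot be told apart. The log2 ratio of the female array minus that of the male array was 0.43 for *Krt18*, 0.30 for *Krt8*, 0.35 for *Egfl6* and 0.15 for *Itgb5*. It was below 0 for matrix genes, at -0.35 for *Col1a1*, -0.33 for *Col4a1*, -0.20 for *Lamb1* and -0.23 for *Spp1*. It was also below 0 for the smooth muscle genes *Acta2* (-0.19) and *Cnn1* (-0.25), and for *Kdr* (-0.34) and *Podxl* (-0.28).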

How the results depend on the processing

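The ratios of the 6 genes were recomputed 54 times, and the value was below 0 in all 54. These values are means of the 2 arrays, or each array alone at the main setting. Behind such means, *Fras1* in replicate 1 was 0.02 with median centring, 0.0011 with normexp and 0 in the authors' table. The ratios did not depend on the floor, nor on the mean of probes for genes with a single probe, so the count of 54 is a description. With each array alone they ran from -0.79 to -0.57 for *Frem2*, -0.71 to -0.19 for *Frem1*, -0.44 to -0.40 for *Npnt*, -0.27 to -0.16 for *Grip1*, -0.23 to -0.17 for *Itga8* and -0.18 to -0.01 for *Fras1*. Only the mean of *Npnt*, whose SD of 0.029 was the smallest of the 6, moved by more than its SD. It went to -0.38 with median centring, -0.34 with normexp background correction and -0.45 with the mean of its probes. Leaving out an array cannot move a mean by more than its SD, so this yardstick says nothing of those settings. The count of all genes lower and higher (127 and 52) became 85 and 32 with the signals as deposited, 108 and 85 with median centring, 160 and 107 with normexp and 63 and 22 with the mean of probes. With no filter on dim genes limma called 0 genes of 29924, of which 39.3% had both ratios at 0, with 2028 at an unadjusted p under 0.05. Genes changed by 1.5-fold or more in both arrays numbered 51 lower and 11 higher. The female array alone gave 160 lower and 112 higher, and the male array alone gave 78 lower and 25 higher. Counts in the lists held in 45 of 50 refits. The call of *Wnt11* was lost (0 called) with the mean of probes, a filter at 200 and no filter, that of *Col17a1* (0 called) with no filter, and the basement membrane list gained 1 call with a filter at 50. That of *Aldh1a2* was lost with the mean of probes and no filter, *Thy1* was called with a filter at 200 and with normexp, and *Grhl3* with normexp. *Wnt11* and *Aldh1a2* have a single probe each, so with the mean of probes only the fit over all genes differed for them. The cause of these shifts was not tested. The ratio within an array already pairs its control and treated pools. Signals of *Npnt* below 100 and 1 array per sex limit what can be said.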
